A study of Mus musculus with 10 samples.

Results

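The transcripts of the MYC, MAX and MXD network were followed in 5 blood cell populations of the mouse. The network was taken by gene symbol as Myc, Mycn, Max, Mxd1, Mxd3, Mxd4, Mxi1, Mnt and Mlx, which are 9 of the 22923 gene symbols in the deposited expression tables. The populations were cycling and quiescent CD4+CD8+ thymocytes from the thymus, and large pre-B cells, small pre-B cells and mature granulocytes from the bone marrow. All mice were C57bl/6 and 4 weeks old. Control mice carried floxed alleles of the kinase gene Dyrk1a without Cre (Dyrk1a flox/flox, Mx1-Cre-). The conditional knockout mice, labelled CKO, were Dyrk1a -/-, Mx1-Cre+. The Mx1 promoter that drives this Cre responds to interferon, and no inducing agent is named in the labels. Cells of 2 mice of a genotype were pooled, and each of the 10 combinations of population and genotype was sequenced as 1 library.

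MYC and MYCN bind DNA as dimers with MAX and activate genes of cell growth, ribosome production and metabolism. MXD1, MXI1, MXD3, MXD4 and MNT also pair with MAX at the same E-box sequences, where they recruit SIN3 and histone deacetylases and repress transcription. MLX is a MAX-like protein that pairs with MXD1, MXD4, MNT and the glucose-responsive MondoA, encoded by Mlxip. In developing lymphocytes MYC is known for driving the growth of dividing precursors, and several MXD genes are known for their expression in cells that stop dividing.

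The E-box CACGTG, the sequence to which dimers of the network bind, also lay in promoters of its own members. Promoter windows of 250 bases before to 50 bases after the transcription start were taken from RefSeq on GRCm38.p6, and 8 of the 9 members had a window. Myc had none, so its promoter was not searched for any motif. CACGTG reads the same on both strands and was present in 4 of the 8, Mxd4, Mnt, Mlx and Max, against 8.09% of all 27025 genes with a window. The median GC content of the windows was 63.8% for the members and 52.7% for all windows. The stretches around these E-boxes are shown because the letters that the network's proteins recognise stand in genes of the network itself. Capitals mark the letters CACGTG, and each stretch runs 5′ to 3′ in the direction of the gene. Those of Mxd4, Mnt and Mlx end before the RefSeq start, and that of Max ends with its E-box, which spans it.
Mxd4, chr5:34187897-34187956, minus strand: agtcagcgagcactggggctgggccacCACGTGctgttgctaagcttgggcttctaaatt
Mnt, chr11:74830774-74830833, plus strand: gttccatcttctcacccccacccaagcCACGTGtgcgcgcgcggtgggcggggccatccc
Mlx, chr11:101087223-101087276, plus strand: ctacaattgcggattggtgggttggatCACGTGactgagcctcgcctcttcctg
Max, chr12:76962246-76962278, minus strand: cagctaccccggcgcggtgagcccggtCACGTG

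The E-box of Mxd4 began 219 bases before the start, that of Mnt 123 bases, that of Mlx 40 bases and that of Max 3 bases. Motifs of cell cycle promoters were searched as well. TTTCGCGC and TTTGGCGC, which E2F proteins can bind, were sought on both strands and were present in 0.929% of all genes with a window and in 1 of the 8 members, Mycn. In the stretch of Mycn below, capitals mark the merged matches, of which the first and the second overlap on opposite strands.
Mycn, chr12:12941970-12942046, minus strand: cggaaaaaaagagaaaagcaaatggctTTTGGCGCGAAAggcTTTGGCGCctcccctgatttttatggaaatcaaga

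The letters TTTGAA, the core of the cell cycle homology region, were sought on both strands and were present in 20.2% of all genes with a window and in 1 of the 8 members. A match describes letters in a window and was not tested as a binding site.

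Values are FPKM, fragments per transcript length scaled to the mapped fragments of a library, a unit inferred from the tools named by the submitters and from the values. Depth is not known, and FPKM show shares of a library, not RNA per cell. The 8 lymphoid libraries summed to 360394 to 431868 FPKM and the granulocyte libraries to 830006 and 1074258. Each library had 9818 to 10350 genes at 1 FPKM or more. The T cell markers Cd4 and Cd8a were at 153 to 675 FPKM in thymocytes and at 2.96 or less elsewhere. Ebf1, which encodes a transcription factor of early B cells, was at 80.2 to 138 FPKM in pre-B cells and at 1.02 or less elsewhere, and the granule gene Camp was at 18472 and 22665 FPKM in granulocytes. The granulocyte libraries also held cell cycle transcripts, such as Top2a at 122 and 127 FPKM, although their label says mature. Dyrk1a was at 31.2 to 37.4 FPKM in control libraries and at 34.4 to 44.7 in CKO libraries. A gene-level value sums over all exons, so it does not check the loss of a floxed part.

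Myc, at chr15:61985391-61990374 on mm10, was most abundant in large pre-B cells and fell from large to small pre-B cells. It was at 33.6 FPKM in control and 45.4 in CKO large pre-B cells, against 4.81 and 16.9 in small pre-B cells. In cycling thymocytes it was at 9.32 and 11.4, and in quiescent thymocytes at 4.19 and 7.26, control first. Granulocytes held 6.22 and 3.65 FPKM. Both large pre-B libraries stood above all others, cycling thymocytes stood above quiescent ones in each genotype, and the range of small pre-B cells overlapped those of both kinds of thymocytes and of granulocytes. The fall from large to small pre-B cells was 6.98-fold in control and 2.69-fold in CKO libraries, with a log2 difference of -1.98 on the log2(FPKM + 1) scale (SE 0.29, limma adjusted p = 0.0066). The difference between quiescent and cycling thymocytes was -0.79 (SE 0.29, limma adjusted p = 0.076), which did not pass the threshold of 0.05. The 4 markers of monocytes also summed higher in large pre-B cells, to 269 and 102 FPKM against 11.0 and 52.1 in small ones, as did the 4 measured markers of erythroid cells, at 29.1 and 15.7 against 0.768 and 0.939. Their part in the falls of Myc and of its growth targets was not tested. These bulk values cannot tell fewer cells that express a gene from less of its RNA in each cell.

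Mycn, which can stand in for Myc in early haematopoietic cells, was a transcript of thymocytes. It was at 4.77 and 7.57 FPKM in cycling and 2.52 and 6.82 in quiescent thymocytes of control and CKO mice. In pre-B cells it was at 1.08 and 1.66 FPKM when they were large and at 1.38 and 2.20 when small. Granulocytes held 0.131 and 0.0249 FPKM, under the minimum of 1 FPKM used for testing, which 8 of the 10 libraries reached. All 4 thymocyte libraries stood above all 4 pre-B libraries. The 2 kinds of thymocytes overlapped, as did large and small pre-B cells, and neither state comparison was called.

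Max, the shared partner, was nearly level in lymphoid cells and high in granulocytes. It was at 44.7 and 45.7 FPKM in cycling thymocytes, 70.3 and 58.0 in quiescent thymocytes, 42.0 and 45.6 in large pre-B cells and 48.3 and 39.4 in small pre-B cells. Granulocytes held 355 and 398 FPKM. Both quiescent thymocyte libraries stood above the other 6 lymphoid libraries. The rise from cycling to quiescent thymocytes was small, with a log2 difference of 0.49 (SE 0.14, limma adjusted p = 0.040), and the call was lost when all genes above 0 were tested (adjusted p = 0.090, range over all alternatives 0.036 to 0.30). Between large and small pre-B cells the difference was -0.00 (SE 0.14), with the control pair higher and the CKO pair lower in small cells.

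Mxd3 went against the other MXD genes and was highest in cycling thymocytes and large pre-B cells. This member is known for its expression in proliferating precursors. It was at 43.3 and 33.8 FPKM in cycling and 0.697 and 6.57 in quiescent thymocytes. Large pre-B cells held 48.7 and 51.8, small pre-B cells 8.30 and 16.4, and granulocytes 21.7 and 13.2. The cycling and large libraries stood above all others, and the quiescent thymocytes were lowest. Mxd3 fell in both lineages, with a log2 difference of -3.45 in thymocytes (SE 0.57, limma adjusted p = 0.0093) and of -2.01 in pre-B cells (SE 0.57, limma adjusted p = 0.036). The pre-B call was lost with a pseudocount of 0.1 (adjusted p = 0.082) and without the filter on low values (adjusted p = 0.11), with a range of 0.0053 to 0.32 over all alternatives. Mki67, a marker of dividing cells, was at 139 and 198 FPKM in cycling and 1.70 and 48.3 in quiescent thymocytes, and at 158 and 187 in large and 35.0 and 75.5 in small pre-B cells. Mxd3 lies on mm10 at chr13:55325168-55329823 and overlaps Prelid1, which was at 113 to 392 FPKM. No source used here gives the strand setting of the counting, so reads in the shared part cannot be told apart.

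Mxd4, at chr5:34173883-34187720 on mm10, was the most abundant repressor transcript of thymocytes and small pre-B cells. It was higher in quiescent than in cycling thymocytes and in small than in large pre-B cells. It was at 74.4 and 119 FPKM in cycling and 193 and 344 in quiescent thymocytes. Large pre-B cells held 25.4 and 38.2, small pre-B cells 82.2 and 144, and granulocytes 46.4 and 115. Both quiescent thymocyte libraries stood above both cycling ones, and both small pre-B libraries above both large ones. The rise was 2.59- and 2.89-fold in thymocytes and 3.23- and 3.75-fold in pre-B cells, control first. The log2 difference was 1.44 in thymocytes (SE 0.11, limma adjusted p = 0.0062) and 1.77 in pre-B cells (SE 0.11, limma adjusted p = 0.0021).

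Mxd1, an early mark of terminal differentiation in myeloid cells, was dominated by granulocytes. It was at 688 and 729 FPKM there, at 38.4 and 46.5 in cycling thymocytes and at 40.5 and 70.2 in quiescent thymocytes. Pre-B cells held 3.59 and 3.80 FPKM when large and 9.04 and 8.97 when small. The 3 kinds of cells did not overlap, and small pre-B cells stood above large ones in both genotypes. Mxd1 rose from large to small pre-B cells, with a log2 difference of 1.09 (SE 0.15, limma adjusted p = 0.0057), and in thymocytes the difference was 0.33 (SE 0.15, limma adjusted p = 0.13). The 6 measured markers of granulocytes also summed higher in small pre-B cells, to 52.6 and 35.9 FPKM against 19.9 and 11.5 in large ones. Their part in the rise of Mxd1 was not tested.

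Mxi1 shared the order of Mxd1 over the cell types, with a narrower range. It was at 27.6 and 31.3 FPKM in cycling and 38.9 and 41.1 in quiescent thymocytes, 9.47 and 10.7 in large and 12.2 and 13.7 in small pre-B cells, and 79.8 and 78.4 in granulocytes. Its value was higher in the quiescent or small state in each of the 4 pairs, by 1.28- to 1.41-fold. The log2 difference was 0.43 in thymocytes (SE 0.10, limma adjusted p = 0.022) and 0.33 in pre-B cells (SE 0.10, limma adjusted p = 0.044). The pre-B call was lost with a pseudocount of 5 (adjusted p = 0.059, range over all alternatives 0.039 to 0.24).

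Mnt, the repressor that is widely expressed and counters MYC in cycling cells, was at 24.6 and 28.1 FPKM in cycling and 34.9 and 30.8 in quiescent thymocytes. Pre-B cells held 7.51 and 7.34 when large and 10.4 and 8.63 when small, and granulocytes 17.2 and 16.8. Thymocytes stood highest, granulocytes in between and pre-B cells lowest, with no overlap. The state differences, 0.31 and 0.32 on the log2 scale in thymocytes and pre-B cells, were not called.

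Mlx varied least among lymphoid libraries. It was at 19.6 and 18.2 FPKM in cycling thymocytes, 21.8 and 17.7 in quiescent thymocytes, 19.8 and 17.9 in large pre-B cells and 28.2 and 21.0 in small pre-B cells, against 72.4 and 71.0 in granulocytes. The thymocyte libraries and the large pre-B libraries overlapped, and neither state difference was called. Mlx, at chr11:101087277-101092207 on mm10, overlaps Psmc3ip, which was at 2.54 to 18.4 FPKM. Of the further partners, Mlxip was at 16.8 and 22.3 FPKM in cycling and 30.0 and 37.1 in quiescent thymocytes, and at 22.0 and 23.2 in large and 76.4 and 54.6 in small pre-B cells. It rose in the quiescent or small state by 0.76 in thymocytes (SE 0.15, limma adjusted p = 0.014) and by 1.48 in pre-B cells (SE 0.15, limma adjusted p = 0.0038). Mga, which also pairs with MAX, was at 6.07 to 11.1 FPKM in the 10 libraries.

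**Figure D1:**
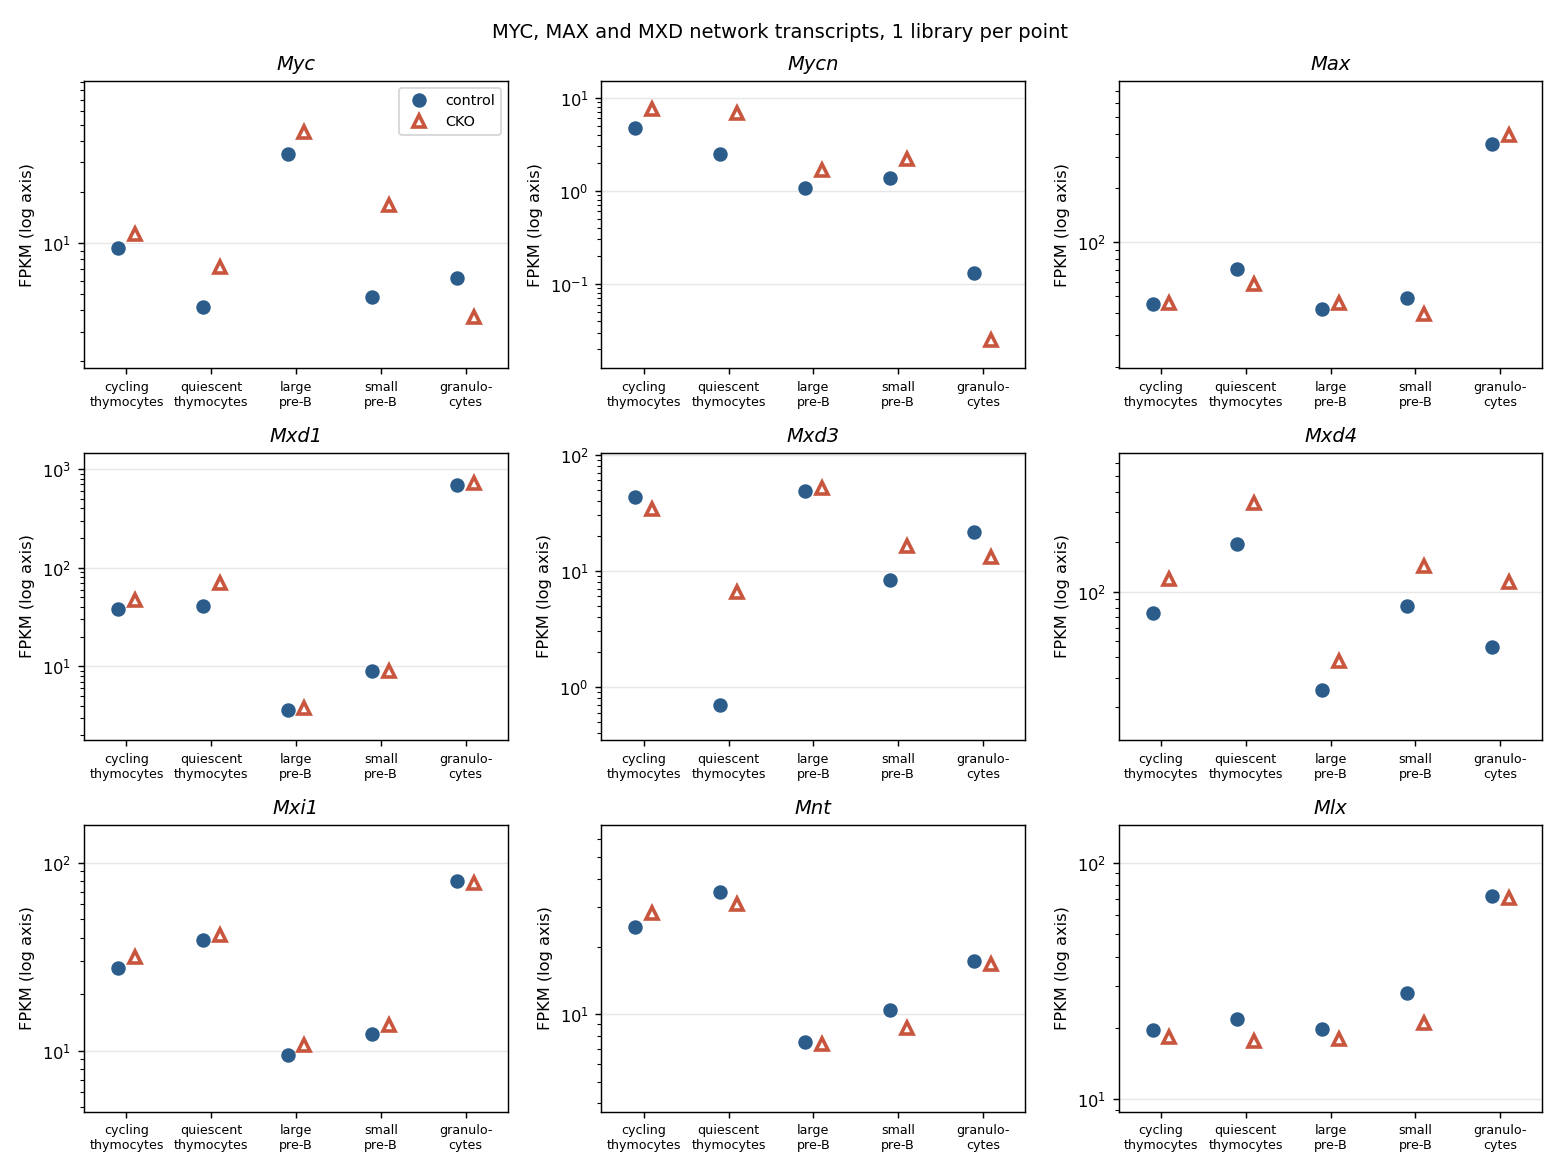
FPKM of each network member (log axis, each panel with its own range) in the 5 populations, 1 library per point, control as filled circles and CKO as open triangles. Mxd3 was at 33.8 to 51.8 FPKM in cycling thymocytes and large pre-B cells and at 0.697 to 16.4 in quiescent thymocytes and small pre-B cells. Max, Mxd1 and Mlx were highest in granulocytes.

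The state comparison asked which members differ between the cycling or large and the quiescent or small cells of a lineage. The states are those of the labels. Small pre-B cells and CKO quiescent thymocytes still held Mki67 at 35.0 to 75.5 FPKM. It was fitted across the 11126 genes that reached 1 FPKM in 2 or more of the 8 lymphoid libraries. In thymocytes 3 of the 9 members rose (Max, Mxd4 and Mxi1), where 25.2% of all tested genes rose, and 1 fell (Mxd3), where 19.7% of all genes fell. In pre-B cells 3 rose (Mxd1, Mxd4 and Mxi1), against 25.6% of all genes, and 2 fell (Myc and Mxd3), against 21.8%. With such shares of all genes called, the counts of members are near the background. Over both lineages together Mxd1, Mxd4 and Mxi1 rose, against 23.1% of all genes, and Myc and Mxd3 fell, against 19.0%. The mean log2 difference was 1.60 for Mxd4 (SE 0.11, limma adjusted p = 0.0045), 0.38 for Mxi1 (SE 0.08, limma adjusted p = 0.016) and 0.71 for Mxd1 (SE 0.19, limma adjusted p = 0.032). It was -1.38 for Myc (SE 0.32, limma adjusted p = 0.020) and -2.73 for Mxd3 (SE 0.50, limma adjusted p = 0.010).

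Each lineage had only 2 pairs of libraries, and the populations of a genotype came from 1 pool of mice, so the tests hold no measure of how animals vary. Without the thymocyte control pair, 0 members and 4 genes in all were called in thymocytes. Without the thymocyte CKO pair Mxd3 and Mxd4 were called, and without either pre-B pair the calls were Mxd3, Mxd4 and Myc, the last at -0.79 with a limma adjusted p of 0.039. Without the pre-B control pair, 0 members and 3 genes in all were called in pre-B cells. Without the pre-B CKO pair Myc and Mxd4 were called there, and without either thymocyte pair all but Mxi1. Every called member kept its direction in each of these fits. Over both lineages Mxd3 and Mxd4 stayed called whichever pair was left out, while Myc was lost without the pre-B CKO pair (adjusted p = 0.060), Mxd1 without any pair but the thymocyte control pair (0.082 to 0.10) and Mxi1 without any pair (0.051 to 0.074). Without the filter on low values Myc and Mxd1 had adjusted p-values of 0.053 and 0.072 there, and without a block only Mxd3 was called (limma adjusted p of the other 4 from 0.12 to 0.74).

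**Figure D2:**
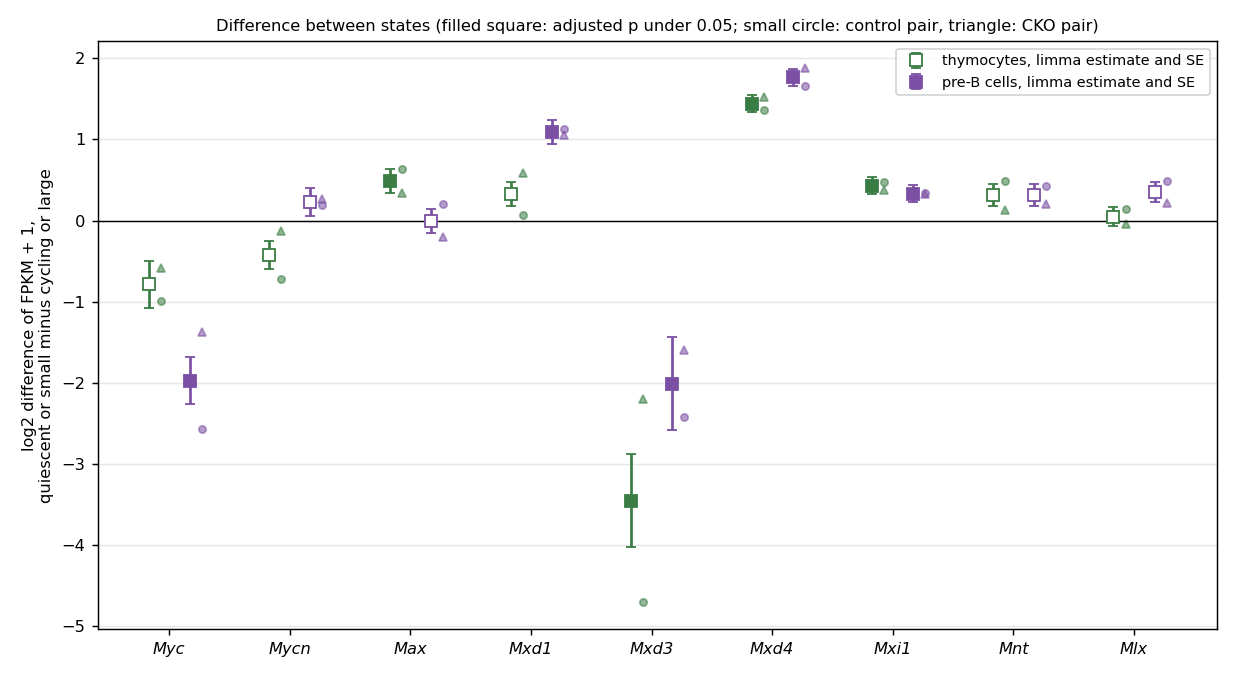
Difference of the quiescent or small minus the cycling or large state for each member (log2 of FPKM + 1). Squares with SE are from limma, filled where the adjusted p was under 0.05. The control pair is a small circle and the CKO pair a small triangle. Mxd4 lay at 1.44 in thymocytes and 1.77 in pre-B cells and Mxd3 at -3.45 and -2.01, while the Myc squares lay at -0.79 and -1.98.

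The difference of the state effect between lineages was called for 0 of the 9 members, where it was called upward for 3.22% and downward for 3.62% of all genes. At an unadjusted p under 0.05 limma gave 3 members and 3136 genes. Mxd1 had a difference of 0.76 (SE 0.21, limma adjusted p = 0.092), Myc of -1.19 (SE 0.41, limma adjusted p = 0.14) and Mycn of 0.66 (SE 0.24, limma adjusted p = 0.16). Mxd3 alone was called, at 2.70 with an adjusted p of 0.046, when the thymocyte CKO pair was left out, and its adjusted p ranged from 0.046 to 0.84 over all alternatives. A larger fall of Myc in pre-B cells than in thymocytes was therefore not shown by this test.

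Lineages were compared with large set against cycling and small against quiescent cells of the same genotype. Mxd1, Mnt, Mxi1 and Mxd4 were lower in pre-B cells, and Myc and the repressor Mxd3 were higher. In the 4 matched pairs, 5 members were lower in pre-B cells (Mxd1, Mnt, Mxi1, Mxd4 and Mycn), where 30.8% of all genes were lower, and 2 were higher (Myc and Mxd3), where 33.0% were. The log2 difference was -2.82 for Mxd1 (SE 0.22), -1.69 for Mnt (SE 0.09), -1.51 for Mxi1 (SE 0.08) and -1.40 for Mxd4 (SE 0.10), each with a limma adjusted p of 0.00037 or less. Mycn differed by -1.25 (SE 0.21, limma adjusted p = 0.0040). Myc was higher by 1.23 (SE 0.30, limma adjusted p = 0.015). Its pairs ranged from 1.15-fold between control small pre-B cells and quiescent thymocytes to 3.99-fold between CKO large pre-B cells and cycling thymocytes. Without the control pair of large pre-B cells and cycling thymocytes the adjusted p of Myc was 0.057, and without the CKO pair of small pre-B cells and quiescent thymocytes it was 0.056, in a range of 0.0014 to 0.13 over all alternatives. Mxd3 was higher by 1.11 (SE 0.37, limma adjusted p = 0.044), and this call was lost without either CKO pair (adjusted p = 0.054 and 0.13), with a pseudocount of 0.1 (0.067) and without the filter (0.084). The Mxd3 pairs were 1.13- and 1.53-fold for large against cycling cells and 11.9- and 2.50-fold for small against quiescent cells, control first. In the control small and quiescent pair the 5 markers of proliferating cells summed to 150.0 FPKM against 7.39. Their part in the Mxd3 difference was not tested. Without a block Myc, Mxd3 and Mxd4 were not called (limma adjusted p = 0.13, 0.42 and 0.095). Max and Mlx were not called.

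Granulocytes were set against the mean of large and small pre-B cells of the same marrow. Here 5 members were higher (Mxd1, Max, Mxi1, Mlx and Mnt), where 42.2% of 11187 tested genes were higher, and 2 were lower (Myc and Mycn), where 37.3% were. Mxd1 was higher by a log2 difference of 6.69 (SE 0.09), Max by 3.08 (SE 0.12), Mxi1 by 2.69 (SE 0.10), Mlx by 1.70 (SE 0.11) and Mnt by 0.94 (SE 0.11), each with a limma adjusted p of 0.00093 or less. Myc was lower, at -1.80 (SE 0.45, limma adjusted p = 0.015), and Mycn was lower, at -1.24 (SE 0.18, limma adjusted p = 0.0018). Mycn was under 1 FPKM in both granulocyte libraries and passed the filter through the pre-B libraries alone. Its call therefore adds no support to the FPKM values themselves, 0.131 and 0.0249 in granulocytes against 1.08 to 2.20 in pre-B cells. Without the large pre-B pair Myc differed by -0.81 and was not called (adjusted p = 0.21). Mxd3 and Mxd4 were not called (limma adjusted p = 0.20 and 0.13). The Mxd4 value of granulocytes lay between those of large and small pre-B cells in both genotypes, and that of Mxd3 did so in control but lay below both in CKO libraries. Against large pre-B cells alone Mxd3 was lower by a log2 difference of -1.51 (limma adjusted p = 0.0022) and Mxd4 higher by 1.20 (adjusted p = 0.0038). Against small pre-B cells alone the differences were 0.50 for Mxd3 (adjusted p = 0.28) and -0.57 for Mxd4 (adjusted p = 0.033). Rescaling the libraries moved the median difference of all genes from 0.06 to -0.10 and changed none of the members' calls or directions.

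The balance of repressors and activators was read within each library, where the scaling of the library cancels. The summed FPKM of Mxd1, Mxd3, Mxd4, Mxi1 and Mnt was 2.74 and 2.38 times that of Myc and Mycn in large pre-B cells and 19.7 and 10.0 times in small pre-B cells. It was 14.8 and 13.7 times in cycling and 45.9 and 35.0 times in quiescent thymocytes. In granulocytes it was 134 and 259 times. Large pre-B cells thus had the lowest ratio of the 5 populations in both genotypes. The ratio was higher in the quiescent or small state in each of the 4 pairs. Without Mxd3, which was higher in the cycling or large state, the ratio in large pre-B cells was 1.33 and 1.28.

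The member with the largest share of the network's transcripts was Mxd4 in 3 of the 5 populations. In cycling thymocytes it made up 26.0% and 34.8% of the summed FPKM of the 9 genes. In large pre-B cells Mxd3 made up 25.5% and 23.3% and Myc 17.6% and 20.4%, beside Max at 22.0% and 20.5%. In small pre-B cells Mxd4 made up 40.1% and 53.0%, and in quiescent thymocytes 47.5% and 59.0%. In granulocytes Mxd1 made up 53.5% and 51.2% and Max 27.6% and 27.9%. Mxd4 was 0.758 and 0.842 times as abundant as Myc in large pre-B cells and 46.0 and 47.3 times in quiescent thymocytes. Max was at 0.114 to 0.416 times the sum of Myc, Mycn, the MXD genes and Mnt across the 10 libraries, lowest in CKO quiescent thymocytes and highest in granulocytes. These are ratios of transcripts per length and say nothing of protein.

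**Figure D3:**
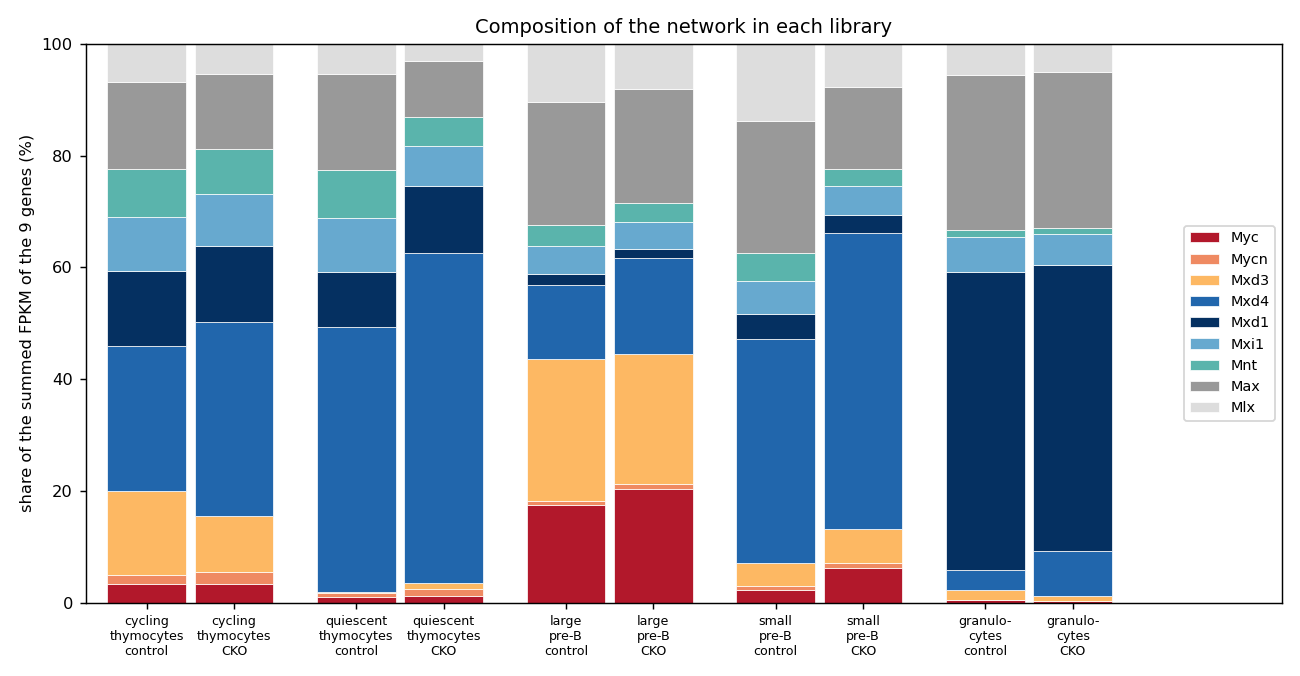
Share of each member in the summed FPKM of the 9 genes (%), 1 bar per library. Myc took 17.6% and 20.4% and Mxd3 25.5% and 23.3% of the sum in large pre-B cells, Mxd4 40.1% to 59.0% in small pre-B cells and quiescent thymocytes, and Mxd1 51.2% and 53.5% in granulocytes.

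CKO and control libraries were compared within each population without a test, since each had 1 library. A member was said to be at least 2-fold apart when the log2 ratio of FPKM + 1 reached 1 and the higher library had at least 5 FPKM. The folds given for members are ratios of FPKM without the added 1. In quiescent thymocytes the log2 ratio was 2.16 for Mxd3, which was at 0.697 FPKM in the control library, and 1.15 for Mycn. There Mxd3 was 9.43-fold and Mycn 2.71-fold higher in the CKO library, where 3.66% of the considered genes were at least 2-fold higher. In small pre-B cells Myc was 3.51-fold higher, where 4.52% of genes were. In granulocytes Mxd4 was 2.47-fold higher, where 0.571% of genes were. In cycling thymocytes and large pre-B cells no member passed in either direction, where 0.374% and 0.871% of genes were higher. No member was at least 2-fold lower in any population, where 0.580%, 1.60%, 0.972%, 1.78% and 1.76% of genes were, in the order cycling and quiescent thymocytes, large and small pre-B cells and granulocytes. Mxd3 in small pre-B cells lay under the limit, with a log2 ratio of 0.91 and a fold of 1.98.

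Other transcripts differed beside these members. The 5 markers of proliferating cells summed to 7.39 FPKM in control and 144 in CKO quiescent thymocytes, and to 150.0 and 328 in small pre-B cells. In small pre-B cells the 6 markers of natural killer and innate cells summed to 12.8 and 110.0 FPKM and the 4 markers of plasmacytoid dendritic cells to 116 and 392, and the 4 markers of monocytes to 11.0 and 52.1. Vpreb1 and Igll1, which encode the surrogate light chain, were at 132 and 107 FPKM in control and at 418 and 440.0 in CKO small pre-B cells. Siglech, a marker of plasmacytoid dendritic cells, was at 2.25 FPKM in control and 41.5 in CKO small pre-B cells. The part of these transcripts' sources in the higher Myc, Mxd3 and Mycn values was not tested. The Y-linked Ddx3y was at 0 to 0.039 FPKM in control and 7.26 to 16.7 in CKO libraries. Xist, a transcript of female cells, was at 23.3 to 65.2 FPKM in control and 8.09 to 45.6 in CKO libraries. The CKO libraries thus held transcripts of both sexes, and genotype, pool and the sex of the pooled mice cannot be told apart.

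Over the 4 lymphoid populations no member was called between CKO and control libraries, and limma called 0.0270% of all genes higher and 0.00899% lower. At an unadjusted p under 0.05 it gave 4 members and 1867 genes. The populations of a genotype came from 1 pool of mice and are not separate animals. The SE and p-values here therefore measure how alike the populations were, not how mice of a genotype vary. Mxd4 had the smallest p of the members, with a log2 difference of 0.72 (SE 0.07, limma adjusted p = 0.064), and was higher in the CKO library of 5 of 5 populations, by 1.50- to 2.47-fold. With granulocytes in the fit the difference was 0.83 (SE 0.11, limma adjusted p = 0.11), and over all alternatives the adjusted p was at least 0.055. Myc differed by 0.74 (SE 0.23, limma adjusted p = 0.25) and Mycn by 0.63 (SE 0.16, limma adjusted p = 0.23), with both higher in the 4 lymphoid CKO libraries and lower in CKO granulocytes. Mlx differed by -0.23 (SE 0.08, limma adjusted p = 0.27). Whether the state effect differed between genotypes was called for 0 of the 9 members and for 0.0180% and 0.0270% of all genes upward and downward, and an unadjusted p under 0.05 was reached by 3 members and 1358 genes. Mxd3 fell 62.1-fold from cycling to quiescent thymocytes in control and 5.15-fold in CKO libraries, and its difference between genotypes over both lineages was 1.66 (SE 0.39, limma adjusted p = 0.21). For Myc it was 0.80 (SE 0.22, limma adjusted p = 0.27).

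**Figure D4:**
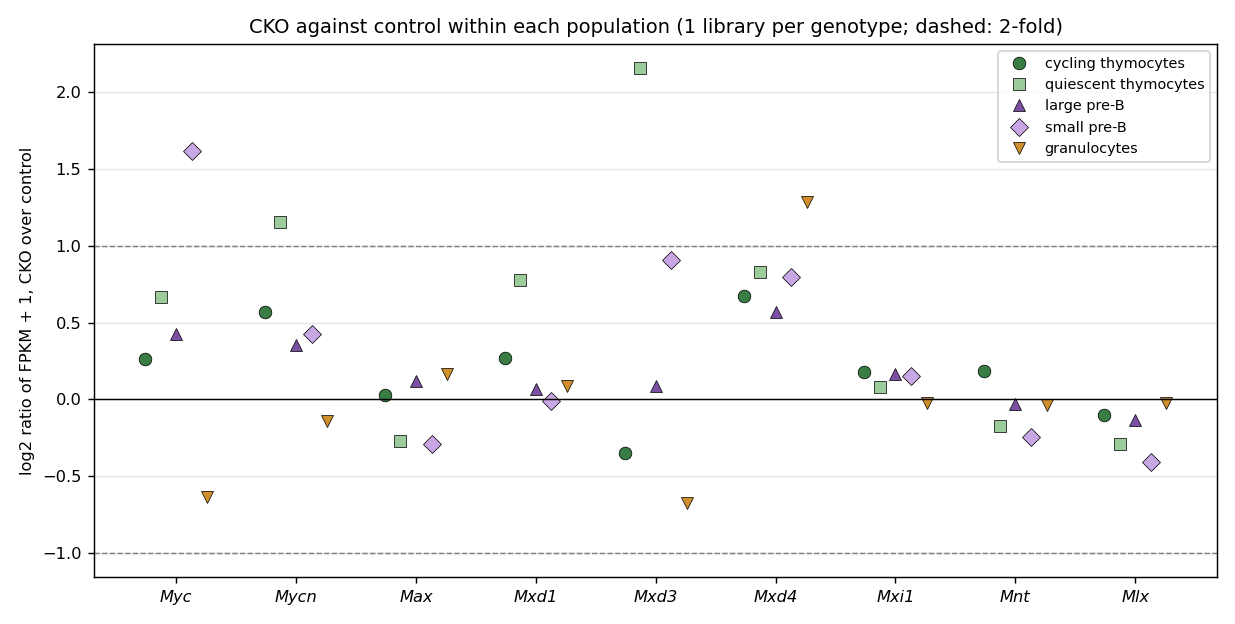
Log2 ratio of FPKM + 1 in the CKO over the control library for each member, 1 symbol per population, with dashed lines at a log2 ratio of 1 and -1. Mxd4 lay above 0 in all 5 populations, from 0.57 to 1.29, and Mxd3 ranged from -0.67 in granulocytes to 2.16 in quiescent thymocytes.

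Transcripts of proteins with which the network works were described by 4 lists. Of 13 corepressors of MXD and MNT, 2 rose and 4 fell from cycling to quiescent thymocytes, and 0 rose and 6 fell from large to small pre-B cells. Over all genes 25.2% rose and 19.7% fell in thymocytes and 25.6% and 21.8% in pre-B cells, so the thymocyte counts of this list are near the background. Their median log2 difference was -0.10 and -0.32, against 0.06 and 0.04 over all genes. Sin3a, the scaffold of the complex, was among those that fell in both, with differences of -0.33 in thymocytes (SE 0.10, limma adjusted p = 0.039) and -0.32 in pre-B cells (SE 0.10, limma adjusted p = 0.041). Sin3b rose by 0.39 in thymocytes (SE 0.11, limma adjusted p = 0.033), and the histone-binding Rbbp7 fell in pre-B cells, at -1.28 (SE 0.16, limma adjusted p = 0.0046). Sap30, a SIN3 subunit, fell in thymocytes, at -1.30 (SE 0.20, limma adjusted p = 0.0083).

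Of 12 cofactors of MYC, 3 rose and 6 fell in thymocytes and 2 rose and 6 fell in pre-B cells, with medians of -0.15 and -0.38 against the same 0.06 and 0.04 over all genes. The 3 that rose in thymocytes are near the background of 25.2%, and the 6 that fell there stand beside 19.7% of all genes. In pre-B cells the counts of cofactors stand beside 25.6% of all genes higher and 21.8% lower. Ruvbl1, an ATPase of chromatin complexes, fell in both, at -1.17 in thymocytes (SE 0.12, limma adjusted p = 0.0065) and -0.99 in pre-B cells (SE 0.12, limma adjusted p = 0.0049). Zbtb17, which encodes the MYC partner MIZ1 in repression, rose by 0.78 (SE 0.14, limma adjusted p = 0.011) and 0.73 (SE 0.14, limma adjusted p = 0.012). Of 13 genes of MYC protein turnover, 4 rose and 4 fell in thymocytes and 2 rose and 3 fell in pre-B cells, with medians of 0.27 and 0.06. These counts stand beside shares over all genes of 25.2% higher and 19.7% lower in thymocytes and 25.6% and 21.8% in pre-B cells, and are near them. Aurka, a mitotic kinase that shields MYCN from degradation, fell in both, at -1.89 and -2.61 (limma adjusted p = 0.0069 and 0.0030). Fbxo32, a ubiquitin ligase subunit, rose by 1.03 and 1.58 (limma adjusted p = 0.0080 and 0.0034).

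Of 15 signals upstream of Myc in lymphocytes, 4 rose and 3 fell in thymocytes and 7 rose and 2 fell in pre-B cells, with medians of 0.16 and 0.32 against 0.06 and 0.04 over all genes. The thymocyte counts are near the background of 25.2% and 19.7%, and the pre-B counts stand beside 25.6% and 21.8%. Ikzf3, which encodes the Myc repressor Aiolos of pre-B cells, was at 39.2 and 24.0 FPKM in large and 152 and 80.6 in small pre-B cells. It rose there by a log2 difference of 1.82 (SE 0.10, limma adjusted p = 0.0018) and had a difference of 0.27 in thymocytes (SE 0.10, limma adjusted p = 0.086). Its state effect differed between the lineages by 1.55 (SE 0.15, limma adjusted p = 0.017). That difference was also called upward for Il7r and downward for Ctnnb1. Il7r, Notch1, Foxo1, Foxo3, Ebf1 and Pax5 rose in pre-B cells as well, and Ctcf and Ctnnb1 fell. The rise was 0.55 for Il7r (SE 0.11, limma adjusted p = 0.013) and 0.62 for Notch1 (SE 0.12, limma adjusted p = 0.013). The part of any of these genes in the fall of Myc was not tested.

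Growth targets of MYC that changed with the state mostly fell, in both lineages. The list held 60 genes of ribosome production, nucleotide and polyamine synthesis, translation and metabolism, of which 59 were tested. In thymocytes 4 rose and 25 fell, with a median log2 difference of -0.29 against 0.06 over all genes. Of all tested genes 25.2% rose and 19.7% fell there. In pre-B cells 2 rose and 42 fell, with a median of -0.80 against 0.04, where 25.6% of all genes rose and 21.8% fell. There were 22 genes that fell in both lineages, and 48 of the 59 had a lower difference in pre-B cells than in thymocytes. Over all genes the difference between lineages was called upward for 3.22% and downward for 3.62%. In the list it was called for 13 genes, all with the lower value in pre-B cells. The median over the list was -0.51 against -0.01 over all genes. The count of 13 became 8 with a pseudocount of 0.1 and 0 without the filter on low values. Leaving out the thymocyte control pair left 0 falls in thymocytes and the thymocyte CKO pair 15, and leaving out the pre-B control pair left 0 falls in pre-B cells and the pre-B CKO pair 21.

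Slc7a5, a transporter of large amino acids, had the largest difference between lineages. It was at 77.0 and 64.7 FPKM in cycling, 73.8 and 66.5 in quiescent thymocytes, 29.2 and 35.1 in large and 6.22 and 10.8 in small pre-B cells. It fell in pre-B cells, at -1.84 (SE 0.14, limma adjusted p = 0.0024), with a difference of -0.01 in thymocytes (SE 0.14, limma adjusted p = 0.96) and of -1.83 between them (SE 0.19, limma adjusted p = 0.019). Both states of thymocytes overlapped, while small pre-B cells stood below large ones. The mitochondrial chaperone Hspd1 fell in pre-B cells, at -1.68 (SE 0.11, limma adjusted p = 0.0023) and differed by 0.01 in thymocytes (SE 0.11, limma adjusted p = 0.95). Ldha, a glycolytic enzyme, fell in both, at -0.39 in thymocytes (SE 0.10, limma adjusted p = 0.024) and -1.86 in pre-B cells (SE 0.10, limma adjusted p = 0.0018). The nucleolar Npm1, the most abundant of the list, fell in both, at -0.49 (SE 0.12, limma adjusted p = 0.025) and -1.47 (SE 0.12, limma adjusted p = 0.0025).

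Srm, the spermidine synthase, was at 22.0 and 17.3 FPKM in cycling and 8.98 and 5.58 in quiescent thymocytes, and at 45.9 and 46.6 in large and 4.07 and 10.5 in small pre-B cells. It had the largest fall of the list in pre-B cells, with a log2 difference of -2.63 (SE 0.28, limma adjusted p = 0.0039). In thymocytes the largest fall was that of Dctpp1, a nucleotide pyrophosphatase, at -2.18 (SE 0.41, limma adjusted p = 0.013). Dusp2, a phosphatase of MAP kinases, rose in both, by 0.85 (SE 0.21, limma adjusted p = 0.025) and 1.57 (SE 0.21, limma adjusted p = 0.0054).

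Between CKO and control libraries over the lymphoid populations 0 of the 59 growth targets were called. Of all genes 0.0270% were called higher and 0.00899% lower. In small pre-B cells, where Myc was higher in the CKO library, 26 of the 52 considered targets were higher and 26 lower, and 3 were at least 2-fold higher, Dctpp1, Srm and Ung, where 4.52% of all considered genes were. Their median log2 ratio was 0.00 against -0.10 over all genes. In granulocytes 3 targets were higher and 52 lower than in pre-B cells, where 42.2% of all genes were higher and 37.3% lower. Their median was -1.67 against 0.06 over all genes. Hk2, a hexokinase, was higher by 4.14 (SE 0.11, limma adjusted p = 1.1e-05), at 54.2 and 49.9 FPKM against 1.17 to 3.22 in pre-B cells. Of 53 growth targets with a promoter window, 17 held CACGTG, or 32.1%, against 8.09% of all genes with a window. The list was chosen as targets of MYC, so this share is no separate support, and it was not matched for GC content.

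**Figure D5:**
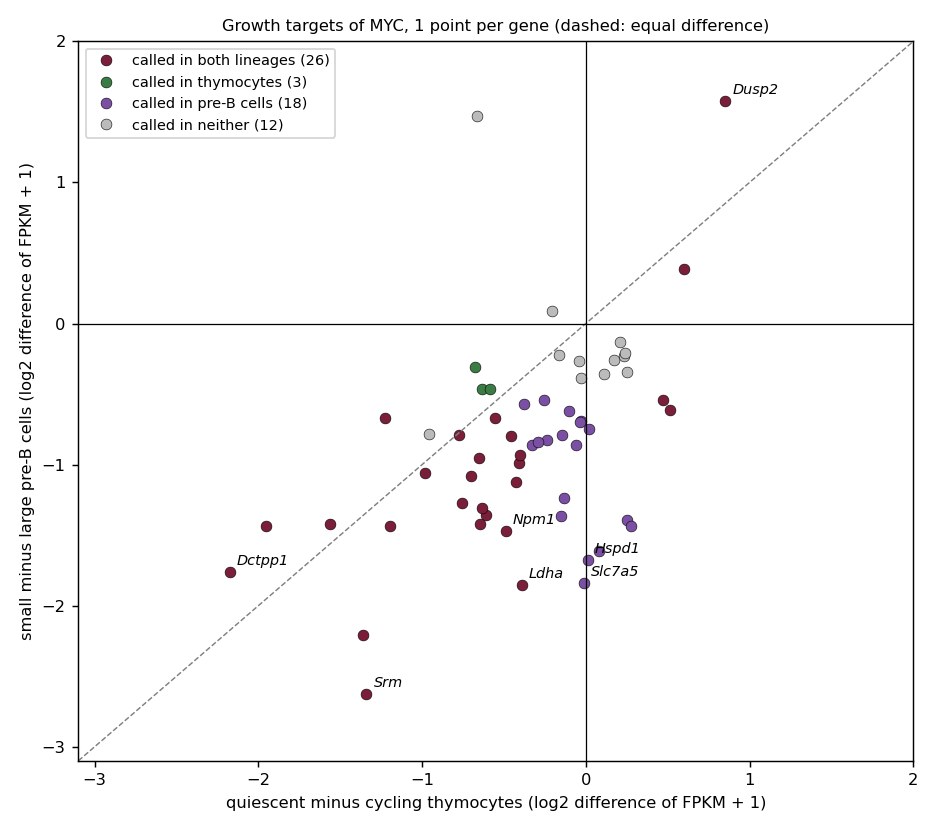
Difference of quiescent minus cycling thymocytes (horizontal axis) and of small minus large pre-B cells (vertical axis) for 59 growth targets of MYC. Values are log2 of FPKM + 1, 1 point per gene, coloured by where limma called the gene. Of the points, 48 lie below the dashed line of equal difference, and Slc7a5 lies at -0.01 in thymocytes and -1.84 in pre-B cells.

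Likeness to each member was measured as Pearson's r of log2(FPKM + 1) over the 10 libraries among 8646 genes, as a description. The libraries share pools of mice and differ most by cell type, so high values of r are common. Mxd3 was most like Tk1, thymidine kinase, with r = 0.995, followed by Ccdc34, Spc24, Bub1 and Mad2l1, of which Spc24, Bub1 and Mad2l1 serve the kinetochore and its checkpoint. Tk1 was at 52.2 and 39.5 FPKM in cycling and 2.16 and 11.5 in quiescent thymocytes. Myc was most like Rps27l, with r = 0.947, then Crtap, Ide, Cbx5 and Morn2. Mxd4 was most like Vezf1, with r = 0.958, then Dyrk1b, a kinase related to Dyrk1a, and Rc3h1, Rbbp6 and Gpbp1. Dyrk1b was at 23.4 and 30.1 FPKM in cycling and 54.2 and 63.6 in quiescent thymocytes, at 8.73 and 9.04 in large and 23.8 and 27.6 in small pre-B cells, and at 10.4 and 19.8 in granulocytes.

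The other members were most like genes of the population in which they were highest. Max was most like Rbfa (r = 0.997), Mlx like Myl12b (r = 0.997) and Mxi1 like Rhof (r = 0.994), all highest in granulocytes. Mxd1 was most like Atp7a (r = 0.994), Mnt like Obfc2a (r = 0.996) and Mycn like Arc (r = 0.976), the last a gene at 16.4 to 38.3 FPKM in thymocytes and at 4.59 or less elsewhere. Among the members, Mxd1, Mxi1 and Mnt were alike over the 8 lymphoid libraries, with r from 0.971 to 0.986. Over the same libraries r was 0.775 between Myc and Mxd3 and -0.717 between Myc and Mxd4.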

How the data were processed

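RNA sequencing values of 10 libraries were used. Total RNA was extracted and made into libraries by standard Illumina methods, per the labels' protocols. Per the submitters' processing notes, the tools were TopHat2 2.0.8b and Cuffdiff 2.1.1 and the build mm10, with no roles given. The deposited values are read as FPKM, and no label names the unit. The annotation and strand setting are not given in the sources used here. Depth is unknown. Of 23179 rows a file, 201 repeated another row. For 158 symbols on several rows, the row highest on average was used.

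The tests were limma-trend fits (limma 3.58.1 under R 4.3.3) of log2(FPKM + 1), which understates changes of low genes. Genes needed at least 1 FPKM in 2 or more fitted libraries, and p-values were Benjamini-Hochberg adjusted over all genes at a threshold of 0.05. State effects were fitted with lineage and genotype combined as a block, CKO against control with population as a block, lineages with a block for each state and genotype, and granulocytes with population and genotype. In all 8 tests were made. Each was tested on simulated data. Recovery of known changes was lowest for the differences of the state effect between lineages and between genotypes. Alternatives were no filter or a filter at 5 FPKM, pseudocounts of 0.1 and 5, libraries rescaled by median ratios, no block, all 5 populations, and leaving out each pair.

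Of each list the 3 members with the highest mean and, per test, the called members with the largest rise and fall could be named, and of genes most like a member 5. Sin3a, Ung, Il7r, Foxo3 and, as an upstream signal, Ebf1 fall outside this rule and were named after their values were seen. Members and lists were chosen with earlier results of these data known. Positions are from GENCODE vM21 on mm10. Tables were handled with pandas 2.3.3 and numpy 2.4.6 in Python 3.11.15, and figures drawn with matplotlib 3.10.9.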

Additional observations from a re-analysis of the deposited data

Results flagged for a closer look

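Mycn moved in opposite directions between the states of the 2 lineages. It was lower in quiescent than in cycling thymocytes in both genotypes, with log2 differences of -0.72 in control and -0.13 in CKO libraries. It was higher in small than in large pre-B cells in both, by 0.20 and 0.27. The difference between lineages was 0.66 (SE 0.24) and did not pass the threshold (limma adjusted p = 0.16). Mycn was at 1.08 to 2.20 FPKM in pre-B cells, near the minimum of 1 FPKM used for testing.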

How the results depend on the processing

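The fits paired libraries through blocks of lineage, genotype, state and population. Each population and genotype had 1 library, so no replicate numbers could be paired beyond these blocks. All 28 called results of members kept their direction in every setting run. Of these, 18 stayed called in every setting other than leaving out a pair, and 11 in those as well. The difference of Mnt between lineages became -0.052 with a pseudocount of 5, with the cause not tested.

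Without the filter, the state effect over both lineages was called for 3 members, and the numbers of genes called for the difference between lineages, the difference between genotypes and CKO against control were all 0. Growth targets with a called difference between lineages were also 0 then. Without a block, the state effect over both lineages was called for 1 member and 967 genes, pre-B cells against thymocytes for 4 members and CKO against control for 2 genes. With a pseudocount of 0.1 the difference between lineages was called for 361 genes and 8 growth targets, and CKO against control for 10 genes. With a pseudocount of 5 the last was called for 2 genes. Genes at least 2-fold apart then numbered 37 in cycling and 241 in quiescent thymocytes, 66 in large and 209 in small pre-B cells and 88 in granulocytes, and members in quiescent thymocytes 1. The cause of these shifts was not tested.

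Leaving out each pair of libraries in turn, the genes called ranged from 4 to 3795 for the state in thymocytes, 3 to 4972 in pre-B cells, 2976 to 3596 over both lineages, 0 to 359 for the difference between lineages and 0 to 1 for CKO against control. Members called ranged from 0 to 3, 0 to 4, 2 to 4 and 0 to 1 in the first 4 of these. Growth targets called lower ranged from 0 to 18 in thymocytes, 0 to 43 in pre-B cells and 0 to 7 for the difference between lineages. Directions changed for members that were not called. Their ranges were -0.044 to 0.14 for Mlx in thymocytes, -0.21 to 0.20 for Max in pre-B cells, -0.22 to 0.11 for Mycn over both lineages and -0.18 to 0.19 for the lineage difference of Mnt. In granulocytes against pre-B cells they were -1.51 to 0.50 for Mxd3 and -0.57 to 1.20 for Mxd4. These fits have fewer samples. The genotype difference could not be fitted with a pair left out. With 2 pairs a lineage and unknown depth, small differences of low genes such as Mycn could not be resolved.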
